A study of Homo sapiens with 4 samples.

Results

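Interferon-stimulated and RNA sensing genes were followed here in U87 cells, an established human glioblastoma line, kept with or without carnosine, the dipeptide beta-alanyl-L-histidine. The genes form a list of 44 symbols, drawn up with earlier results of these data known. Each matched 1 row of the deposited table of 58219 genes, and 38 of them had enough counts to be tested. The comparison asks which transcripts differ when carnosine is present in the medium. Carnosine cells received fresh medium with 50 mM carnosine 24 h after seeding and were extracted after a further 24 h. Control cells received the same fresh medium without carnosine and were extracted at the same time. Both groups were grown in high-glucose DMEM with fetal bovine serum, GlutaMAX and antibiotics. There were 2 libraries per group, from a single cell line and a single time. The labels do not say that the replicates came from separate cultures, so the p values cover variation among these libraries alone, and that variation may be technical.

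Cells recognise viral or misplaced RNA through sensors such as RIG-I and MDA5, which signal through the mitochondrial protein MAVS and the kinases TBK1 and IKK-epsilon to IRF3 and so to the transcription of interferons. Secreted interferon binds its receptor, and the kinases JAK1 and TYK2 activate STAT proteins, STAT2 among them, which join IRF9 and bind interferon-stimulated response elements in the promoters of many interferon-induced genes. Many of these genes also have a basal level without added interferon, and several are themselves sensors or factors of the pathway, which gives the system feedback.

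Total counts were 57728762 and 51632970 in carnosine replicates 1 and 2, and 71766267 and 59155538 in control replicates 1 and 2. The 44 genes together took 0.118% and 0.107% of the counts in the carnosine libraries and 0.102% and 0.101% in the controls. Of the markers listed for a mesenchymal and astroglial glioblastoma line, VIM and CD44 were abundant, GFAP had from 4 to 16 counts, SOX2 had at most 2 and S100B had 0 in each library. CHI3L1 of the same list rose (log2 fold change 0.56 ± 0.10, edgeR adjusted p = 0.0243), and VIM and OLIG2, at -0.37 and -0.85, did not pass in edgeR but were called lower by DESeq2. Of the immune markers, LYZ and CD3E had 0 counts in each library, and the summed CPM of the list (counts per 1000000 counts of the scaled library size) was 0.765 and 1.21 with carnosine and 1.04 and 1.19 in controls. The 3 markers of plasmacytoid dendritic cells, the main interferon producers of blood, had 0 counts in each library. Of 6 fibroblast markers, 5 were tested and 4 (80%, against 3.95% of all genes tested) rose in edgeR: COL1A2, COL3A1, LUM and PDGFRB. DESeq2 called COL1A1 in place of COL3A1, which had 23 and 23 counts with carnosine and 2 and 3 in controls. The summed CPM was 612.4 and 554 with carnosine and 401.2 and 316.8 in controls, with DCN at 1 count or 0. Most of it was COL1A2, at 486.1 and 439.6 CPM with carnosine and 329.5 and 257 CPM in controls. Of 3 endothelial markers, 2 were tested and 1, PECAM1, rose in edgeR (50%, against 3.95% of all genes tested). Their summed CPM was 6.77 and 5.54 with carnosine and 2.28 and 2.90 in controls, with CDH5 at 0. The part of these shifts in the results was not tested. In bulk RNA, fewer cells that express a gene and less RNA per cell cannot be told apart.

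The promoter stretches of 7 of these genes show a sequence that many of the genes share. They are RefSeq sequences (GRCh38.p14), 170 bases before to 10 bases after the annotated gene start, read 5′ to 3′ on the gene's strand. They are shown because IFIT1, IFIT3, IFIH1 and PARP14 rose with carnosine and IFI44 and IFI35 fell, beside IFIT5, which lies in the same cluster and did not pass the test. PARP9, which also rose, is not shown because its window holds neither motif. Capitals mark matches to the core of the interferon-stimulated response element, or, in IFI35, which has none in its window, a match to the gamma-activated site.
IFIT1 (chr10:89392453-89392632, plus strand): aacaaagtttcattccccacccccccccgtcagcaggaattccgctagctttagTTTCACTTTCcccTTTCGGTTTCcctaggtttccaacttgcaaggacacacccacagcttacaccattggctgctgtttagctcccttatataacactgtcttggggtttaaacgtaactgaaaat
IFIT3 (chr10:89327827-89328006, plus strand): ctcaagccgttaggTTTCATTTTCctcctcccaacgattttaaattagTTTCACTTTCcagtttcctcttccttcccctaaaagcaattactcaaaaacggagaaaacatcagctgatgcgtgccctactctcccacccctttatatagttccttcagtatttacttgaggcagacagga
IFIT5 (chr10:89414398-89414577, plus strand): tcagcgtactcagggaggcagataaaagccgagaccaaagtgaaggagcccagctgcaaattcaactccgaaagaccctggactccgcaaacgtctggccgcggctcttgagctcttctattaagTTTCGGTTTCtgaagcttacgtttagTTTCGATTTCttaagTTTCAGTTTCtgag
IFIH1 (chr2:162318675-162318854, minus strand): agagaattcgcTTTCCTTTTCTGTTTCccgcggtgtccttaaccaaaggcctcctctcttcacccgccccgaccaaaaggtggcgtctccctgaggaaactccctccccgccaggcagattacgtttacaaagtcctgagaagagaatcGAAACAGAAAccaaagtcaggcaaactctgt
PARP14 (chr3:122680669-122680848, plus strand): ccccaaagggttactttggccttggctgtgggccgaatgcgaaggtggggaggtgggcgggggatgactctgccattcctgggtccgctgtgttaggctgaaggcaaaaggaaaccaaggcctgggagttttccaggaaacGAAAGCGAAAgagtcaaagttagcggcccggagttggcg
IFI44 (chr1:78649619-78649798, plus strand): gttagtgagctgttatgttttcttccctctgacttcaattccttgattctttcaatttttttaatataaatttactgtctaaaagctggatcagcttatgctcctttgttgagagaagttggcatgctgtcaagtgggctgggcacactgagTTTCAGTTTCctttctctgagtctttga
IFI35 (chr17:43006614-43006793, plus strand, gamma-activated site in capitals): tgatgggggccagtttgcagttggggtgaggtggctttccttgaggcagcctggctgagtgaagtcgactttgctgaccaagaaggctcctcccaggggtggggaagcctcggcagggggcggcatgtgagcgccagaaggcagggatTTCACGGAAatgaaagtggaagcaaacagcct

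The response element core was searched as GAAANNGAAA on both strands, so that on the opposite strand it reads as a pair of TTTC blocks. Of the 44 genes, 35 had a promoter in the RefSeq table (250 bases before to 50 after the start, DDX58 under its current symbol RIGI), and DHX58, OAS2, OASL, IRF2, IRF7, IFIT2, IFITM2, MX2 and USP18 did not. The core was present in 22 of these 35 promoters (62.9%), against 996 of 27305 promoters in the table (3.65%). The gamma-activated site, TTCNNNGAA, which reads the same on both strands and can overlap the first motif, was present in 9 of 35 (25.7%), against 2152 of 27305 (7.88%). Both motifs were present in 5 promoters and neither in 9. Of 41 matches to the response element core, 38 began before the gene start. From the RefSeq start, IFIT5 had 3 matches, the first base of the nearest at position -4. The matches of IFIT1 began at -116 and -103 and those of IFIT3 at -156 and -122. GENCODE 29 starts these genes at other bases (89414586 for IFIT5, 89392546 for IFIT1 and 89327894 for IFIT3). The distances, and any contrast between the genes, therefore depend on the start used. A match is a description of these letters and not evidence that a factor was bound.

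**Figure D1:**
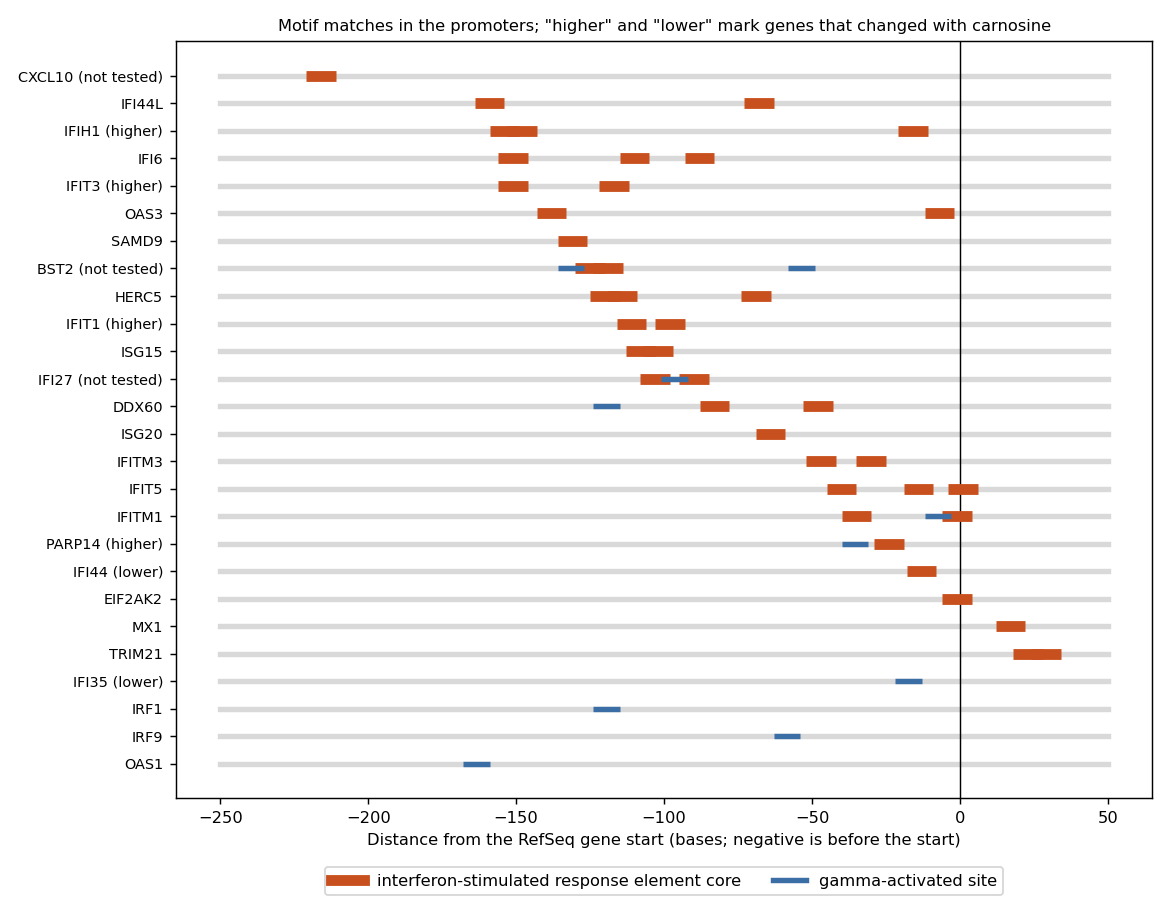
Positions of motif matches in the promoters of the genes that hold at least 1, in bases from the RefSeq gene start; thick orange bars are cores of the interferon-stimulated response element and thin blue bars gamma-activated sites, on a grey bar for the window searched. Of the genes that rose, IFIH1, IFIT1, IFIT3 and PARP14 have a core and PARP9 has neither motif, so it is not drawn; IFI44, which fell, has a core, and IFI35, which also fell, has a gamma-activated site alone.

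Among tested genes with a promoter in the table, the 19 with a core had a median log2 fold change of 0.17 (range -0.64 to 2.14). Of these, 4 were called higher and 1 lower. The 11 without a core had a median of 0.15 (range -0.72 to 0.60), with 1 higher and 1 lower. Of all 16340 genes tested, 3.95% were called higher and 4.36% lower. No test compared the genes with and without a core.

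Carnosine cells had more transcript of IFIT1, IFIT3, IFIH1, PARP9 and PARP14 and less of IFI35 and IFI44, and the other 31 tested genes did not pass the test. Of the 38 tested genes, 5 rose and 2 fell at an edgeR adjusted p under 0.05. That is 18.4% of the tested members, against 8.31% of all 16340 genes tested (3.95% higher and 4.36% lower). No test of that difference was made. The median log2 fold change of the 38 genes was 0.17, with 26 above 0 and 12 below, against 0.00 over all genes tested with 8191 above and 8149 below. The libraries of the 2 groups did not overlap in CPM for 27 of the 38 genes (71.1%), against 56.5% of all genes tested. Without control replicate 1 the calls numbered 3 of 38 (7.89%, against 3.69% of all genes), and without control replicate 2 they numbered 2 of 38 (5.26%, against 2.94%). With a library left out, its group has 1 sample, which is assumed to vary like the other group.

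**Figure D2:**
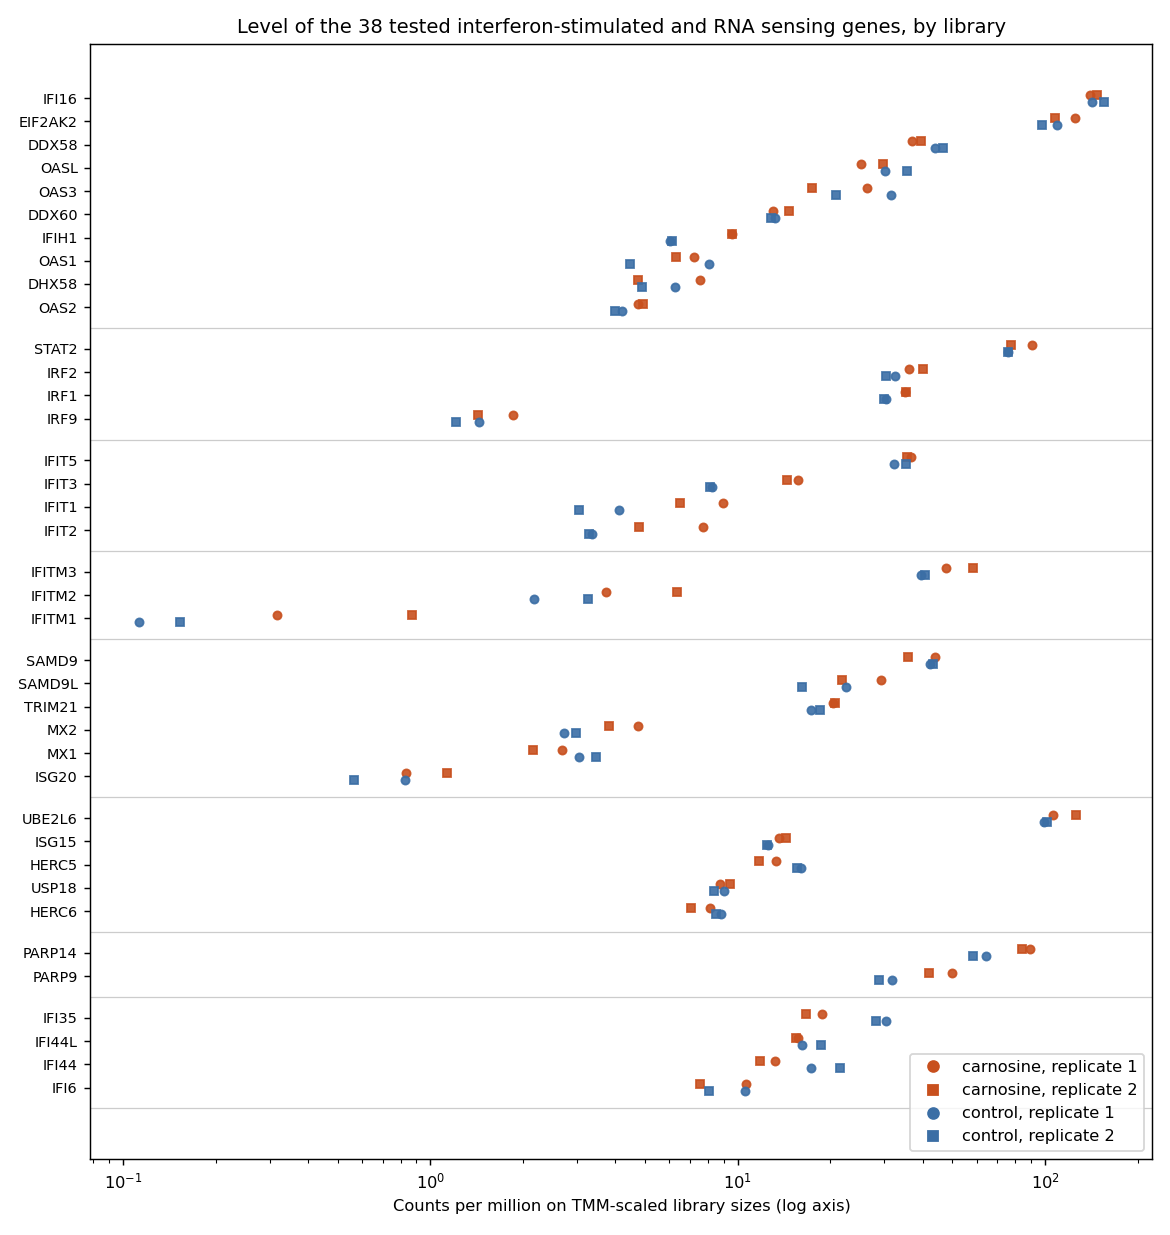
CPM of the 38 tested genes in every library on a log axis, grouped by role, with carnosine libraries (orange) drawn above control libraries (blue) for each gene. IFIT3 had 15.8 and 14.4 CPM with carnosine and 8.24 and 8.11 CPM in controls, while the libraries of OAS3, DHX58 and IFI6 intermingle.

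The IFIT genes code for proteins that bind foreign or uncapped RNA and hold back its translation, and they lie side by side on chromosome 10. IFIT3 (ENSG00000119917.13, chromosome 10, 89327894 to 89340971, GRCh38), the partner that stabilises IFIT1 on RNA, had 948 and 726 counts in carnosine replicates 1 and 2, against 586 and 476 counts in control replicates 1 and 2. On the CPM scale these were 15.8 and 14.4 with carnosine and 8.24 and 8.11 in controls. The groups did not overlap, as for 56.5% of all genes tested. IFIT3 was 1.85-fold higher with carnosine (log2 fold change 0.88 ± 0.13 SE, n = 2 each, edgeR adjusted p = 0.0170). It was the member whose call held in each of the 12 alternative settings, with edgeR adjusted p from 0.0105 to 0.0448 when a library was left out.

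IFIT1 (ENSG00000185745.9, chromosome 10, 89392546 to 89406486), which binds RNA with a 5′ end that lacks cap methylation, had 540 and 328 counts with carnosine, against 293 and 179 counts in controls. Its CPM was 8.98 and 6.51 with carnosine and 4.12 and 3.05 in controls, so replicate 1 was higher in both groups. The groups did not overlap, as for 56.5% of all genes tested. IFIT1 was 2.16-fold higher with carnosine (log2 fold change 1.11 ± 0.24, edgeR adjusted p = 0.0383). The call ended without carnosine replicate 1 (log2 fold change 0.86, edgeR adjusted p = 0.0778), without control replicate 2 (0.91, adjusted p = 0.0984) and with total counts in place of TMM scaling (1.14, adjusted p = 0.0504).

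IFIT2, which promotes cell death and binds AU-rich RNA, had 7.72 and 4.79 CPM with carnosine and 3.36 and 3.29 CPM in controls. Its log2 fold change of 0.91 ± 0.26 did not pass (edgeR adjusted p = 0.0726), and the gap came mainly from carnosine replicate 1, with 0.52 without that library and 1.21 without carnosine replicate 2. DESeq2 called IFIT2 higher (adjusted p = 0.0184). IFIT5, the most abundant IFIT member per kilobase, had 36.7 and 35.5 CPM with carnosine and 32.4 and 35.4 CPM in controls. Its log2 fold change was 0.09 ± 0.10 (edgeR adjusted p = 0.607). Of the 4 IFIT genes, 2 thus rose (50%, against 3.95% of all genes tested) and 4 had log2 fold changes above 0, from 0.09 to 1.11. No test compared IFIT5 with its neighbours. Of the exonic bases of IFIT2, 8.7% are shared with another gene of the same strand, so part of its counts depends on how such reads were assigned.

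Among the 10 sensors, 1 rose and 0 fell (10%) in edgeR, DESeq2 and limma-voom. That share is near the 8.31%, 13.4% and 8.09% of all genes that these tools called. At an unadjusted edgeR p under 0.05, 1 sensor was higher and 1 lower, against 2168 higher and 2305 lower of all 16340 genes tested. IFIH1 (ENSG00000115267.5, chromosome 2, 162267079 to 162318703), the sensor MDA5 of long double-stranded RNA, had 576 and 482 counts with carnosine, against 427 and 359 counts in controls. Its CPM was 9.58 and 9.57 with carnosine and 6.01 and 6.12 in controls, with replicates of each group almost at the same level. IFIH1 was 1.58-fold higher with carnosine (log2 fold change 0.66 ± 0.14, edgeR adjusted p = 0.0413). The log2 fold change was between 0.64 and 0.67 with any 1 library left out, but no such fit called it (edgeR adjusted p from 0.0624 to 0.163).

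DDX58, the sensor RIG-I of RNA with a triphosphate end, had 36.9 and 39.5 CPM with carnosine and 43.7 and 46.6 CPM in controls. Its groups did not overlap, as for 56.5% of all genes tested, and the log2 fold change of -0.24 ± 0.10 did not pass (edgeR adjusted p = 0.171). DHX58, the relative LGP2 that lacks signalling domains, had 7.52 and 4.73 CPM with carnosine and 6.23 and 4.89 CPM in controls, so its groups overlapped. Values of these 3 related helicases therefore lay above, below and around those of the controls, and DDX60, a further helicase, had a log2 fold change of 0.09 ± 0.13.

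EIF2AK2, the kinase PKR that halts translation when it binds double-stranded RNA, had 125.2 and 107.4 CPM with carnosine and 109.1 and 97.9 CPM in controls, and did not pass (log2 fold change 0.17 ± 0.12, edgeR adjusted p = 0.411). IFI16, a nuclear DNA sensor, was the sensor with the most counts, at 140.5 and 147.4 CPM with carnosine and 142.2 and 155.8 CPM in controls. The oligoadenylate synthetases OAS1, OAS2 and OAS3, which switch on RNase L when bound to double-stranded RNA, and their relative OASL had log2 fold changes of 0.11, 0.24, -0.26 and -0.26. None of these 4 passed (edgeR adjusted p from 0.265 to 0.848). In OAS3 the spread within groups was larger than that between them, with 26.5 and 17.4 CPM with carnosine and 31.5 and 21.0 CPM in controls.

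PARP9 and PARP14, enzymes of the ADP-ribosyltransferase family that modulate interferon signalling, lie on chromosome 3 and both rose. PARP14 (ENSG00000173193.13, 122680618 to 122730840) had 5389 and 4230 counts with carnosine, against 4558 and 3430 counts in controls, or 89.6 and 84.0 CPM with carnosine and 64.1 and 58.5 CPM in controls. It was 1.42-fold higher with carnosine (log2 fold change 0.50 ± 0.10, edgeR adjusted p = 0.0325). PARP9 (ENSG00000138496.16, 122527924 to 122564577) had 2996 and 2114 counts with carnosine, against 2256 and 1690 counts in controls, or 49.8 and 42.0 CPM with carnosine and 31.7 and 28.8 CPM in controls. It was 1.52-fold higher with carnosine (log2 fold change 0.60 ± 0.12, edgeR adjusted p = 0.0333).

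For both genes each carnosine library lay above each control (groups did not overlap, in either direction, for 56.5% of all genes tested). Both calls ended without carnosine replicate 1 (edgeR adjusted p = 0.0666 for PARP9 and 0.0586 for PARP14), without control replicate 1 (0.0620 and 0.0854) and without control replicate 2 (0.135 and 0.206), while the log2 fold changes stayed between 0.43 and 0.71. DTX3L, the ubiquitin ligase that pairs with PARP9 and is transcribed from the other side of the same promoter region, had 137.0 and 123.0 CPM with carnosine and 99.5 and 89.5 CPM in controls. It did not pass (log2 fold change 0.46 ± 0.11, edgeR adjusted p = 0.0512), while DESeq2 and limma-voom called it higher.

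The 2 genes that fell belong to the remaining induced genes, of which 4 were tested (50%, against 4.36% of all genes tested called lower). IFI35 (ENSG00000068079.7, chromosome 17, 43006725 to 43014456), a leucine zipper protein that binds NMI, had 1130 and 838 counts with carnosine, against 2162 and 1649 counts in controls. Its CPM was 18.8 and 16.6 with carnosine and 30.4 and 28.1 in controls, with no overlap, as for 56.5% of all genes tested. IFI35 was 1.65-fold lower with carnosine (log2 fold change -0.72 ± 0.12, edgeR adjusted p = 0.0206), a call that ended without control replicate 1 (adjusted p = 0.0659). NMI itself, named as the partner of IFI35, had a log2 fold change of 0.05 ± 0.15 (edgeR adjusted p = 0.882).

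IFI44 (ENSG00000137965.10, chromosome 1, 78649796 to 78664078), a cytoplasmic protein of little known function, had 795 and 594 counts with carnosine, against 1236 and 1262 counts in controls. Its CPM was 13.2 and 11.8 with carnosine and 17.4 and 21.5 in controls, with no overlap, as for 56.5% of all genes tested. IFI44 was 1.55-fold lower with carnosine (log2 fold change -0.64 ± 0.15, edgeR adjusted p = 0.0471). The call ended without carnosine replicate 2 (adjusted p = 0.0738), without control replicate 2 (0.230), with upper-quartile scaling (0.0564), with total counts (0.0744) and in limma-voom (0.0557). Its neighbour IFI44L, a related gene, had 15.8 and 15.5 CPM with carnosine and 16.2 and 18.7 CPM in controls and did not pass (log2 fold change -0.16 ± 0.13, edgeR adjusted p = 0.461). IFI6, a mitochondrial protein that opposes cell death, had -0.04 ± 0.22.

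**Figure D3:**
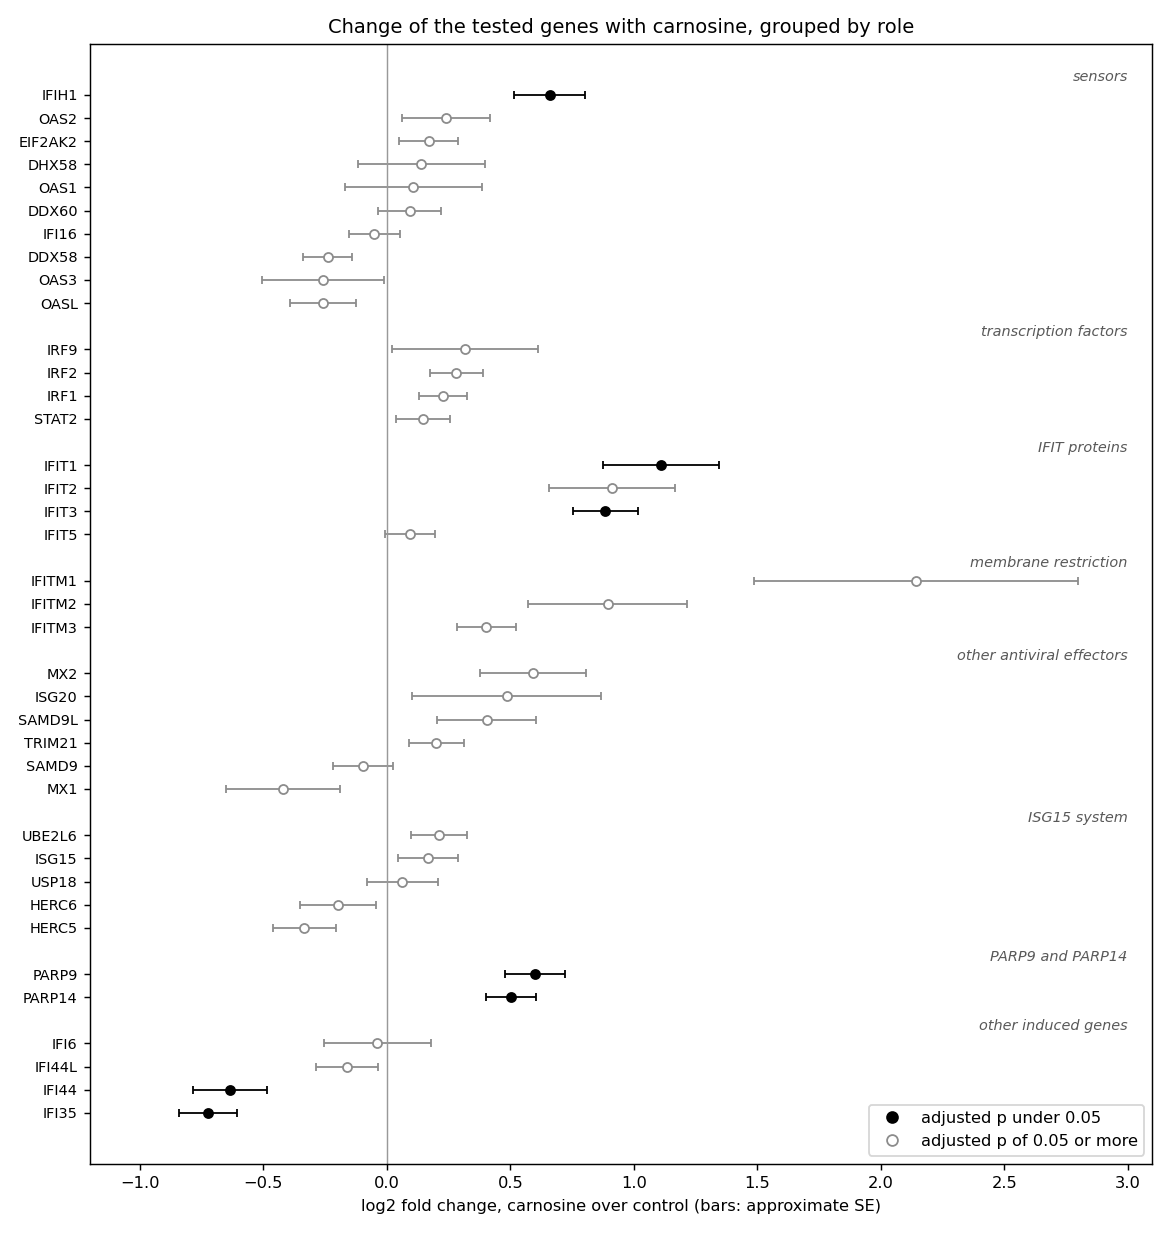
Log2 fold change (carnosine over control) of the 38 tested genes with approximate SE, grouped by role, where filled points passed an adjusted p of 0.05. IFIT1, IFIT3, IFIH1, PARP9 and PARP14 lie to the right and IFI44 and IFI35 to the left, and IFITM1 has the largest value, 2.14, with the widest bar.

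The IFITM proteins, small membrane proteins that block fusion of incoming viruses, had log2 fold changes above 0 in each of 3 genes. Of these, 0 passed in edgeR, DESeq2 or limma-voom. At an unadjusted edgeR p under 0.05, 3 were higher, as were 2168 of all 16340 genes tested. IFITM3 had 47.7 and 58.3 CPM with carnosine and 39.5 and 40.7 CPM in controls (log2 fold change 0.40 ± 0.12, edgeR adjusted p = 0.0857). IFITM2 had 224 and 320 counts with carnosine, against 154 and 191 counts in controls (0.90 ± 0.32, adjusted p = 0.130). IFITM1 had 19 and 44 counts with carnosine, against 8 and 9 counts in controls (2.14 ± 0.66, adjusted p = 0.0901).

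In each of these genes the carnosine libraries lay above the controls, and carnosine replicate 2 was the highest (groups did not overlap, in either direction, for 56.5% of all genes tested). Without carnosine replicate 1 each was called (edgeR adjusted p from 0.0297 to 0.0416, with 2.71 for IFITM1), and without carnosine replicate 2 the log2 fold change of IFITM1 was 1.24 (adjusted p = 0.392). The IFITM genes are close in sequence and position on chromosome 11. IFITM1 and IFITM2 share 32.5% and 22.7% of their exonic bases with each other, and 21.3% of those of IFITM3 lie opposite exons of another gene, so their counts depend on how reads that match more than 1 gene or strand were treated. BST2, or tetherin, which holds budding virions at the membrane, had 9 and 2 counts with carnosine, against 10 and 5 counts in controls, and was not tested.

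Of the transcription factors in the list, STAT2, IRF1, IRF2 and IRF9 were tested and 0 passed in edgeR, DESeq2 or limma-voom. Their log2 fold changes ran from 0.15 to 0.32. At an unadjusted edgeR p under 0.05, 1 of them, IRF2, was higher, as were 2168 of all 16340 genes tested. STAT2, a subunit of the interferon-activated complex, had 90.6 and 77.5 CPM with carnosine and 76.0 and 76.0 CPM in controls. IRF2, which competes with IRF1 for the response element, had 36.2 and 40.1 CPM with carnosine and 32.4 and 30.4 CPM in controls (log2 fold change 0.28 ± 0.11, edgeR adjusted p = 0.145). IRF1, the activator, had 35.1 and 35.4 CPM with carnosine and 30.3 and 29.9 CPM in controls (0.23 ± 0.10, adjusted p = 0.184). The groups of both IRF genes did not overlap, as for 56.5% of all genes tested.

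IRF9, the DNA-binding subunit, had 112 and 72 counts with carnosine, against 102 and 71 counts in controls. Of its exonic bases 48.4% are shared with another gene of the same strand, and GENCODE 29 also lists transcripts of it outside the primary assembly, either of which can lower a count. IRF7, the factor that amplifies interferon production, had 3 and 5 counts with carnosine, against 1 and 0 counts in controls, and was not tested. Transcripts of IRF7 outside the primary assembly are listed too. Of the exonic bases of IRF1, 22% lie opposite exons of other genes, so its counts depend on whether strand was used in counting.

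ISG15 is a ubiquitin-like protein that is attached to other proteins by the E2 enzyme UBE2L6 and the ligase HERC5, and removed by USP18. Of the 5 genes of this system, HERC6 included, 0 passed in edgeR, DESeq2 or limma-voom, with log2 fold changes from -0.33 to 0.21. At an unadjusted edgeR p under 0.05, 1 of them, HERC5, was lower, as were 2305 of all 16340 genes tested. UBE2L6 had 106.4 and 125.7 CPM with carnosine and 99.1 and 101.5 CPM in controls (log2 fold change 0.21 ± 0.11, edgeR adjusted p = 0.288). ISG15 itself had 13.7 and 14.4 CPM with carnosine and 12.5 and 12.5 CPM in controls (0.17 ± 0.12, adjusted p = 0.426). HERC5 had 13.3 and 11.8 CPM with carnosine and 16.1 and 15.6 CPM in controls (-0.33 ± 0.13, adjusted p = 0.148). The libraries of ISG15, UBE2L6, HERC5 and HERC6 did not overlap between groups, as for 56.5% of all genes tested.

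Of the other antiviral effectors, 6 were tested and 0 passed in edgeR, DESeq2 or limma-voom. At an unadjusted edgeR p under 0.05, 1 of them, MX2, was higher, as were 2168 of all 16340 genes tested. SAMD9, which with its neighbour SAMD9L restricts poxviruses and translation, had the most counts, at 43.8 and 35.9 CPM with carnosine and 42.2 and 43.1 CPM in controls. SAMD9L had 29.3 and 21.8 CPM with carnosine and 22.5 and 16.1 CPM in controls (log2 fold change 0.40 ± 0.20, edgeR adjusted p = 0.252), so its groups overlapped. The dynamin-like GTPases MX1 and MX2, neighbours on chromosome 21, had log2 fold changes of opposite sign. MX2, which acts at the nuclear pore, had 4.76 and 3.81 CPM with carnosine and 2.71 and 2.98 CPM in controls (0.59 ± 0.21, adjusted p = 0.132). MX1, which blocks influenza virus, had 2.68 and 2.16 CPM with carnosine and 3.04 and 3.46 CPM in controls (-0.42 ± 0.23, adjusted p = 0.294). TRIM21, an antibody receptor and ubiquitin ligase, and ISG20, an exonuclease, had 0.20 ± 0.11 and 0.49 ± 0.38.

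In addition to IRF7 and BST2, genes with too few counts for the test were RSAD2, XAF1, IFI27 and CXCL10, which are among the most strongly induced genes after interferon treatment of many cells. RSAD2, or viperin, had 1 and 2 counts with carnosine, against 5 and 0 counts in controls. XAF1 had 6 and 0 counts with carnosine, against 1 and 0 counts in controls. IFI27 had 1 and 0 counts with carnosine, against 0 and 0 counts in controls, and is also listed outside the primary assembly. The chemokine CXCL10 had 0 counts in each library, which allows up to 0.0499 and 0.0596 CPM with carnosine and 0.0422 and 0.0511 CPM in controls (3 counts per library, counting error only).

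Compared per kilobase of merged exons, levels of the tested genes ran from 0.114 CPM per kb for ISG20 to 49.2 for UBE2L6, with a median of 4.19 over the mean of all 4 libraries. UBE2L6 had 52.8 CPM per kb with carnosine and 45.7 in controls, IFITM3 had 39.3 with carnosine and 29.7 in controls, and IFI16 had 27.2 with carnosine and 28.2 in controls. ISG15 at 14.1 and STAT2 at 13.1 CPM per kb over all libraries came next. The lowest of the tested genes besides ISG20 were MX2 at 0.273, MX1 at 0.329 and IFITM1 at 0.337 CPM per kb. This order depends on the length used. Per kilobase of the longest transcript MX2 had 0.878, MX1 0.817 and IRF9 0.808 CPM per kb, and STAT2, at 24.4, stood above ISG15, at 16.9. In 17 of the 38 genes (44.7%) the larger gap between replicates of a group exceeded the change with carnosine on the log2 scale, against 55.1% of all genes tested.

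Upstream of these genes, transcripts of interferons were not detected. Each of 9 interferon genes (IFNB1, IFNA1, IFNA2, IFNE, IFNK, IFNG, IFNL1, IFNL2 and IFNL3) had 0 counts in each library, with the same floors as CXCL10. Of 15 receptors, kinases and feedback genes, STAT3 was the 1 that passed (6.67%, against 8.31% of all genes tested). STAT3, a factor of cytokine signalling, had 258.2 and 285.4 CPM with carnosine and 182.0 and 154.2 CPM in controls, and rose 1.62-fold (log2 fold change 0.69 ± 0.12, edgeR adjusted p = 0.0261), a call that ended without control replicate 2 (adjusted p = 0.141).

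The receptor subunit IFNAR1 had 68.1 and 70.5 CPM with carnosine and 53.8 and 53.2 CPM in controls (edgeR adjusted p = 0.0521). The kinase TYK2 had 65.5 and 64.4 CPM with carnosine and 84.6 and 84.0 CPM in controls (adjusted p = 0.0507). Neither passed in edgeR, and DESeq2 called each of them. Their groups did not overlap, as for 56.5% of all genes tested. They were chosen for mention once their values were known.

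Of 27 sensing adaptors and other sensors, 19 were tested, 2 rose and 2 fell (21.1%, against 8.31% of all genes tested). SAMHD1, which depletes nucleotides, had 65.5 and 67.2 CPM with carnosine and 45.3 and 38.4 CPM in controls, and was 1.59-fold higher (edgeR adjusted p = 0.0214). TBK1, the kinase of IRF3, had 48.0 and 52.5 CPM with carnosine and 31.8 and 35.9 CPM in controls, and was 1.48-fold higher (adjusted p = 0.0300). IKBKE, the related kinase IKK-epsilon, had 19.1 and 16.0 CPM with carnosine and 37.7 and 29.7 CPM in controls, and was 1.92-fold lower (adjusted p = 0.0212). The kinase pair TBK1 and IKBKE thus changed in opposite directions.

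PRKRA, the activator PACT of PKR, had 23.8 and 24.8 CPM with carnosine and 35.3 and 34.5 CPM in controls, and was 1.44-fold lower (edgeR adjusted p = 0.0300). The calls of TBK1 and PRKRA ended without either control (adjusted p from 0.0564 to 0.142), that of PRKRA also without carnosine replicate 1 (0.0575), and that of SAMHD1 without control replicate 2 (0.0977). IKBKE kept its call under each alternative. The list had a median log2 fold change of 0.15.

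Of 40 further interferon-stimulated genes in the table, 31 were tested, and 3 rose and 0 fell in edgeR (9.68%, against 8.31% of all genes tested). Their median log2 fold change was 0.04. At an unadjusted edgeR p under 0.05, 5 were higher and 4 lower, against 2168 higher and 2305 lower of all 16340 genes tested. APOL6 and APOL2, apolipoprotein L proteins, were 1.48-fold and 1.46-fold higher and GBP2, a guanylate-binding protein, 1.42-fold (edgeR adjusted p = 0.0309, 0.0213 and 0.0313). The calls of APOL2 and GBP2 ended without either control (adjusted p from 0.0968 to 0.162), that of APOL6 without control replicate 1 (0.155), and that of GBP2 also without carnosine replicate 2 (0.0534). Of 17 antigen presentation genes, 8 were tested and 0 passed in edgeR, DESeq2 or limma-voom. At an unadjusted edgeR p under 0.05, 1 of them, PSMB10, was lower, as were 2305 of all 16340 genes tested. PSME2, a proteasome activator, had 148.3 and 180.7 CPM with carnosine and 136.7 and 154.1 CPM in controls, and B2M, the light chain of MHC class I, 184.8 and 158.5 CPM with carnosine and 170.4 and 174.3 CPM in controls. TAP1, TAPBP, PSMB8 and PSMB9 of that list were not tested and have transcripts listed outside the primary assembly, and the counts of these 4 genes, at most 1 per library, cannot be read as absence of the RNA. Over these 5 lists, 6 of 73 tested genes rose and 2 fell (11%, against 8.31% of all genes tested).

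**Figure D4:**
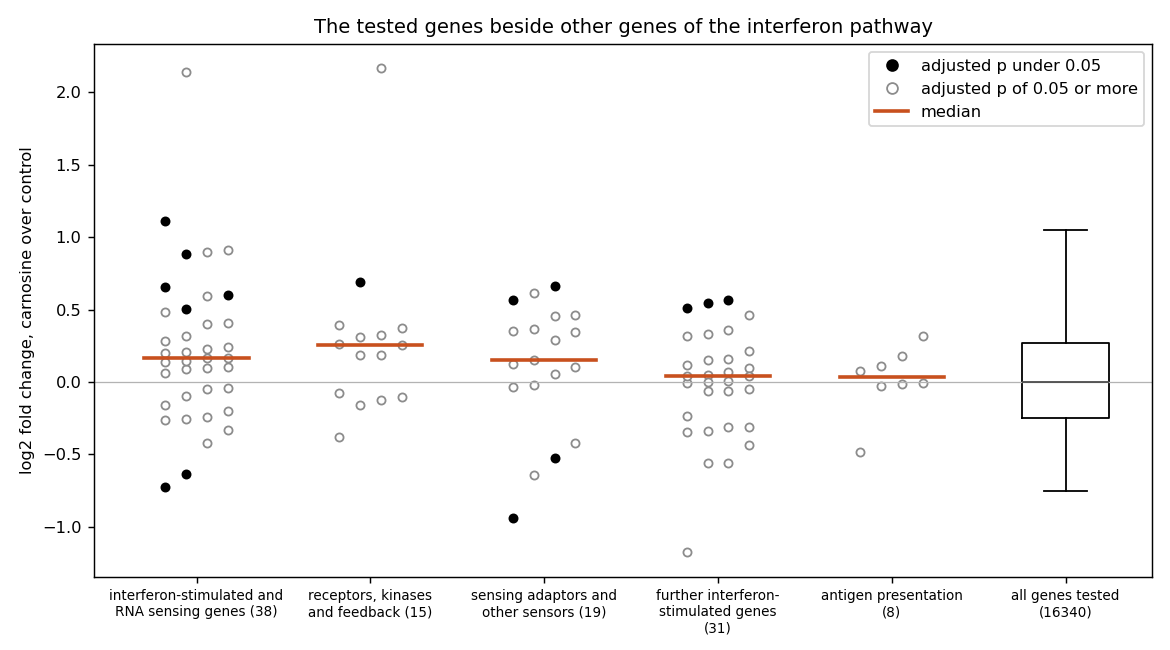
Log2 fold change (carnosine over control) of the tested interferon-stimulated and RNA sensing genes, of 4 other lists of the pathway and of all 16340 genes tested, with the number tested in brackets; filled points passed an adjusted p of 0.05, orange lines are the medians of the lists, and the box shows quartiles with whiskers at the 5th and 95th percentiles. Medians were 0.17 for the 38 genes, 0.26 for receptors, kinases and feedback genes, 0.15 for sensing adaptors, 0.04 for further stimulated genes and 0.03 for antigen presentation.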

How the data were processed

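RNA of 2 carnosine and 2 control libraries was sequenced after rRNA depletion with a stranded kit, per the labels' protocols. The authors deposited whole-number counts of reads for each gene, without normalization. The submitters' processing notes name bcl2fastq 2.17.0, HISAT2 2.1.0, HTSeq 0.6.1 and hg38. The sources used here do not give the annotation release, the strand setting or the treatment of reads with several matches, which bears on gene families and overlapping genes. The table held 0 columns of other samples.

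Genes were kept by the defaults of filterByExpr (minimum count 10, total 15) and tested in edgeR 4.0.16 (R 4.3.3) with TMM scaling and a two-sided quasi-likelihood F test on group alone, with 2 residual degrees of freedom. P values were adjusted by the Benjamini-Hochberg method across the 16340 genes, with a threshold of 0.05. CPM uses TMM-scaled sizes, and SE is the absolute log2 fold change divided by the square root of F. Other scalings and filters, DESeq2 1.42.0, limma 3.58.1 (voom), a replicate term and the omission of each library were tried. The fit was also run on counts simulated with its own dispersions and independent libraries. That run does not test how the libraries of these data vary. Members, lists and settings were chosen with earlier results of these data known. Any of the 44 members may be named, and of each other list those past the threshold, or else the 2 with the most counts. Outside this rule, DTX3L and NMI were named as partners of members, IFNAR1, TYK2, IFNLR1, PARP12, TRAF3 and PSMB10 for their values, and TAP1, TAPBP, PSMB8 and PSMB9 as untested, all after their values were seen. Lengths, coordinates and overlaps come from GENCODE 29 (GRCh38) and promoters from RefSeq. Some genes of the lists are not reported here.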

Additional observations from a re-analysis of the deposited data

How the results depend on the processing

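Each group had 2 libraries. With each library left out in turn, calls over all genes numbered 505 to 1595 (235 to 729 higher, 270 to 866 lower), calls among the 38 genes 2 to 6 (1 to 5 higher, 1 to 2 lower) and calls in the other pathway lists 2 to 11 (1 to 9 higher, 1 to 3 lower). The lowest numbers came without control replicate 2. RLE scaling and a filter on a mean count of at least 10 left the calls among the 38 genes at 7, and upper-quartile scaling, total counts and limma-voom each left 1 lower call, IFI35. Without a filter on low counts 3145 of 26103 genes passed (12%, with 1514 higher and 1631 lower). There were 12 calls among 43 of the genes (27.9%, 10 higher) and 18 in the other lists (12 higher, 6 lower), and the cause was not tested. DESeq2 called 2187 genes (1027 higher, 1160 lower) and 13 in the other lists (5 lower). Among the 38 genes it called 8 (6 higher, 2 lower), or 21.1%, against 13.4% of all genes. Carnosine and control libraries share replicate numbers, but the labels tie these to no common culture or day. Deviations of same-numbered libraries correlated at 0.315 across all tested genes and at 0.514 across the 38 genes, over 2 pairs. A replicate block gave 5767 calls (2771 higher, 2996 lower), 20 among the 38 genes (14 higher, 6 lower) and 31 in the other lists (20 higher, 11 lower). That is 52.6% of the 38 genes, against 35.3% of all genes. The median level was 4.50 CPM per kb by the longest transcript. The median log2 fold change of the 38 genes was between 0.14 and 0.21 under each alternative, and 26 of them stayed above 0 under each scaling. The shorter motif GAAACT was in 25 of 35 promoters (71.4%), against 4088 of 27305 promoters in the table. Genes with few counts, such as IFITM1 with a mean of 20 counts, had SE up to 0.66.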

Other observations

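Other genes near the pathway lay close to the threshold, and were picked once their values were known. IFNLR1, the specific subunit of the interferon lambda receptor, had 29 and 18 counts with carnosine, against 7 and 5 counts in controls (fitted ratio 4.49, edgeR adjusted p = 0.0598). PARP12, a zinc finger ADP-ribosyltransferase, had 18.3 and 14.7 CPM with carnosine and 24.0 and 24.7 CPM in controls (log2 fold change -0.56 ± 0.14, edgeR adjusted p = 0.0539). TRAF3, a ubiquitin ligase of the MAVS pathway, had 2253 and 1629 counts with carnosine, against 3446 and 2641 counts in controls (log2 fold change -0.42 ± 0.11, edgeR adjusted p = 0.0646). In CPM the groups of these 3 genes did not overlap, as for 56.5% of all genes tested. DESeq2 called PARP12 and TRAF3 lower.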
